A study of Mus musculus with 2 samples.

Results

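The genes described here are the 9 adhesion molecules through which leukocytes bind the vessel wall: Icam1, Icam2, Vcam1, Sele, Selp, Selplg, Itgb2, Itgam and Itgal. They were chosen by symbol from the 32285 genes of the count matrices, with earlier results of these data known. Lung cells of female BALB/cJ mice aged 12 weeks, all carrying 4T1 mammary tumours, were profiled by droplet single-cell RNA sequencing on day 14 after tumour inoculation. The saline group received saline and the NP group received cargo-free PLG nanoparticles, both intravenously every 3 days from day 1, for 5 doses. No tumour-free lungs are compared here, so the saline group also carried the tumour. 4T1 is a murine cell line of triple-negative breast cancer that spreads to the lung, and PLG is a biodegradable polyester. The labels describe each library as a pool of 4 mice, with 1 library per treatment and no map from cells to mice, while the study's methods give another number of mice. Every difference below is therefore between 2 libraries, with intervals that cover counting error only, and carries no replicate check and no p-value.

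Leukocytes leave the blood in steps. Selectins on endothelium and platelets, E-selectin (Sele) and P-selectin (Selp), hold cells loosely through P-selectin glycoprotein ligand-1 (Selplg). Integrins of the beta-2 family, a shared beta chain (Itgb2) paired with the alpha chain of LFA-1 (Itgal) or of Mac-1 (Itgam), then bind ICAM-1 and ICAM-2 (Icam1, Icam2) and stop the cell, while VCAM-1 (Vcam1) is bound by the integrin of alpha-4 and beta-1 chains. In the lung much of the neutrophil and monocyte traffic runs through capillaries, where rolling on selectins plays a smaller part than in the venules of other tissues.

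In GENCODE M21 on GRCm38 the genes lie at chr9:21015985-21028817 (Icam1), chr11:106377656-106388075 (Icam2), chr3:116109949-116129688 (Vcam1), chr1:164048234-164057677 (Sele), chr1:164115264-164150026 (Selp), chr5:113818536-113832644 (Selplg), chr10:77530252-77565708 (Itgb2), chr7:128062640-128118491 (Itgam) and chr7:127296260-127335138 (Itgal). Icam2, Vcam1 and Selplg are on the minus strand and the others on the plus strand. Both selectin genes are on chromosome 1 and both integrin alpha chains on chromosome 7. The 250 bases before the RefSeq start (GRCm38.p6, plus strand) are printed for the endothelial genes that the results below contrast and for which a promoter was at hand: Icam1, measured in every large class, Selp, found mostly in neutrophils, and Sele, almost absent. Capitals mark matches, on either strand, to a kappa B motif (GGNNNTTCC) or to TATAAA. The windows are chr9:21015690-21015939 (Icam1), chr1:164047984-164048233 (Sele) and chr1:164115014-164115263 (Selp).
Icam1: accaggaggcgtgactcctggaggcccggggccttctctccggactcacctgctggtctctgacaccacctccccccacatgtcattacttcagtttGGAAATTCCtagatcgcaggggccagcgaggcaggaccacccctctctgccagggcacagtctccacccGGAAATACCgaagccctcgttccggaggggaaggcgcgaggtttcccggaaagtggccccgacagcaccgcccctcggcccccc
Sele: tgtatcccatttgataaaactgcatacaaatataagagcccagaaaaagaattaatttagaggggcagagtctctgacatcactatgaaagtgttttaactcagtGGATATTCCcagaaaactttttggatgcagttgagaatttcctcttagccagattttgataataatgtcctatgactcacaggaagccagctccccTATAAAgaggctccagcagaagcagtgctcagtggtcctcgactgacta
Selp: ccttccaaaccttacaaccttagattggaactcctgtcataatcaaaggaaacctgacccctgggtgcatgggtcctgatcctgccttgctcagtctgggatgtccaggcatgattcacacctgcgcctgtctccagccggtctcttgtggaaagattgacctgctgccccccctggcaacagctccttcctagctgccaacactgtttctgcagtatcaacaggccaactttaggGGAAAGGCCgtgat

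The Icam1 window holds 2 kappa B matches, GGAAATTCC from 153 to 145 bases and GGAAATACC from 84 to 76 bases before the start. In the Sele window the kappa B match GGATATTCC lies 145 to 137 bases and TATAAA 49 to 44 bases before the start. The Selp window holds the kappa B match GGAAAGGCC at 14 to 6 bases. Such letters are common: of 32851 promoter windows of this length, 15.7% held the kappa B motif and 12.4% TATAAA. Whether anything binds at these matches was not measured. GC content was 65.2% for Icam1, 40.4% for Sele and 53.6% for Selp.

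The saline library held 91168129 UMIs (unique molecular identifiers, 1 per captured transcript) and the NP library 90081747. After filtering there were 8662 saline and 8333 NP cells, with median depths of 6474.5 and 6008 UMIs, and 21 cell barcodes occurred in both against 26.5 expected by independent draws. Clusters were named from marker genes, with the 9 genes and the rest of the adhesion list kept out of the clustering. Levels are given as CPM, the UMIs of a gene per 1000000 UMIs summed over the cells of a class, and differences as log2 ratios of NP over saline CPM with exact 95% intervals. Levels are compared across cell classes and libraries and not between genes. The class sizes differed strongly: neutrophils numbered 5681 in saline and 3166 in NP, monocytes 785 and 1512, and endothelial cells 356 and 1348. Doublets were kept. Free RNA carried over between droplets, and the marker lists of other classes are given beside the results they move with.

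**Figure D1:**
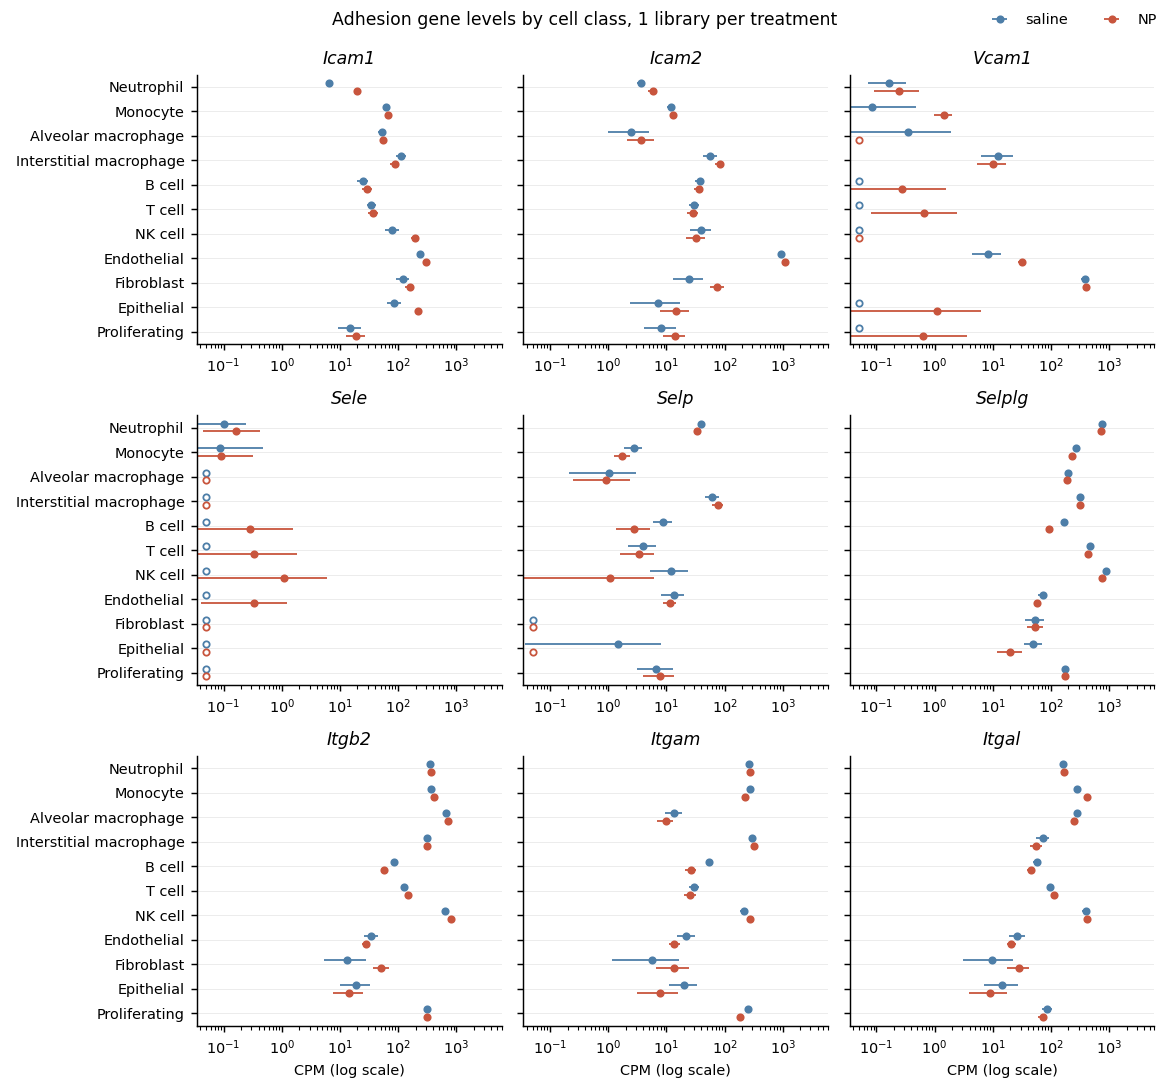
Level of each of the 9 adhesion genes (CPM, log axis) in 11 cell classes, with 1 filled point per library, bars for the exact Poisson 95% interval and open circles at the left for 0 UMIs. Icam2 stands highest in endothelial cells at 931 CPM in saline and 1085 CPM in NP, Vcam1 in fibroblasts at 386 and 396 CPM, and Selplg is at 747 and 730 CPM in neutrophils.

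Across the classes few adhesion genes moved by 2-fold or more. A gene was counted as higher or lower in NP where it differed by at least 2-fold with at least 50 UMIs over both libraries, and each count is set beside the share of all genes measured in that class that did the same. In neutrophils 1 of 7 measured adhesion genes was higher (Icam1) and 0 were lower, where 2.5% of 9654 genes were higher and 1.49% lower. None of the 7 measured in monocytes passed either way, against 2.66% higher and 0.705% lower of 10220 genes. In endothelial cells 1 of 8 was higher (Vcam1) and 0 lower, against 1.49% and 0.842% of 9505 genes. NK cells had 1 of 6 higher (Icam1) against 1.27% of 4396 genes, with 0.864% lower. B cells had 1 of 6 lower (Itgam) against 1.59% of 7918 genes, with 0.392% higher. Fibroblasts had 1 of 4 higher (Icam2) against 2.16% of 4215 genes, with 1.87% lower. In the epithelial class, which held 53 saline and 51 NP cells, Icam1 was higher and Selplg lower of 2 measured, where 12.1% of 3262 genes were higher and 2.21% lower. Selplg there rested on 34 saline and 18 NP UMIs, and free RNA made up at most 3.64% and 5.38% of the class UMIs. In this class the neutrophil markers summed to 9013 CPM in saline and 8157 CPM in NP. The NK cell markers summed to 204 and 2.24 CPM, and the B cell markers to 27.6 and 34.7 CPM. Without cells with over 1% of UMIs in the neutrophil markers, 10 saline and 1 NP Selplg UMIs were left. The part of RNA from other cells in epithelial Selplg was not tested. Counts of 1 among so few genes leave little to set against these shares. The remaining classes had 0 in either direction. These were alveolar macrophages with 5 measured (0.57% of 8421 genes higher, 0.344% lower), interstitial macrophages with 7 (2.24% and 1.53% of 5046), T cells with 6 (0.889% and 0.714% of 7985) and proliferating cells with 5 (1.83% and 1.13% of 4967).

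The median log2 ratio of the measured adhesion genes was 0.04 in neutrophils, 0.09 in monocytes and -0.25 in endothelial cells. Over all genes the medians were -0.14, -0.03 and -0.05. The neutrophil median thus sat below 0, so that an adhesion gene near 0 there lay slightly above the bulk of genes. The endothelial median takes in the leukocyte genes Selplg (-0.31), Itgb2 (-0.28), Itgam (-0.69) and Itgal (-0.31). Of the ligands, Icam1 (0.34), Icam2 (0.22) and Vcam1 (1.92) were above 0 in endothelial cells and Selp (-0.22) below it. In B cells the adhesion genes had a median of -0.43 against -0.03 over all genes, where neutrophil markers summed to 39379 CPM in saline and 23197 CPM in NP. Without B cells with over 1% of UMIs in those markers, Icam1 was at 0.10, Icam2 -0.15, Selplg -0.43, Itgb2 -0.25, Itgam -0.84 and Itgal 0.02. The epithelial median was 0.04 against 0.37, but it is the midpoint of only 2 genes, Icam1 at 1.38 and Selplg at -1.30.

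**Figure D2:**
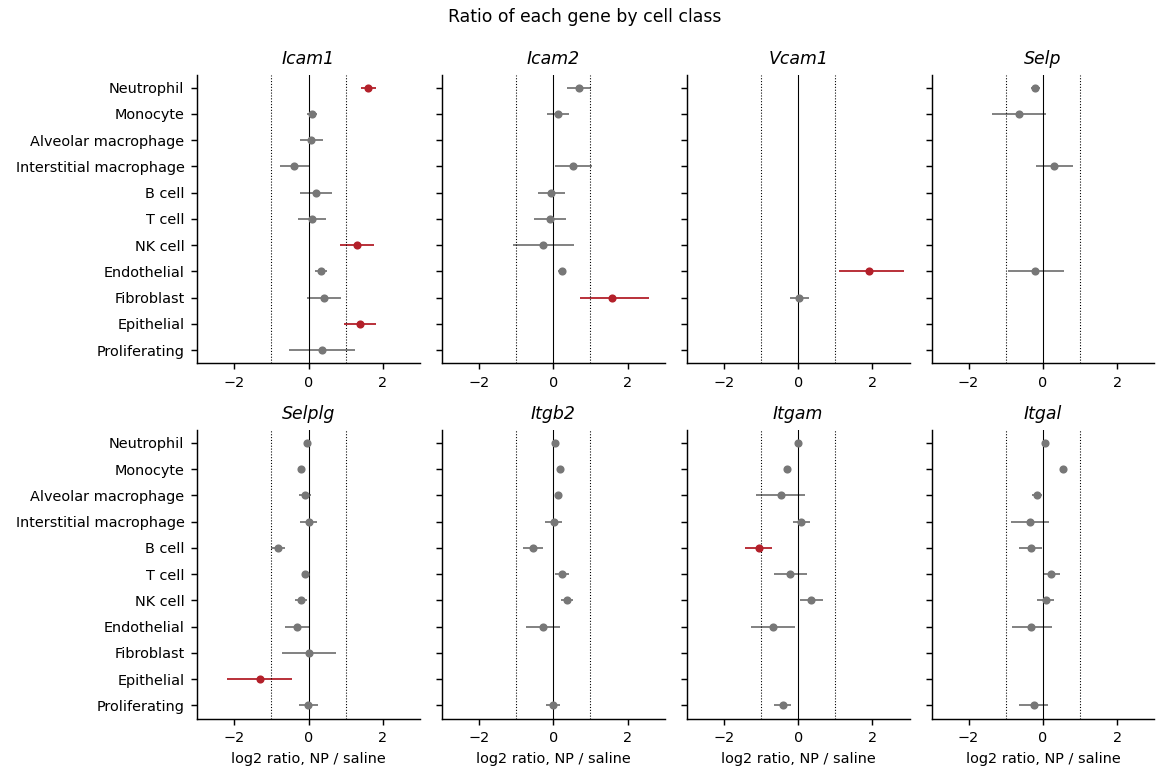
Log2 ratio of NP over saline CPM (horizontal axis) for 8 adhesion genes in each cell class with at least 50 UMIs, with exact 95% intervals for counting error, dotted lines at a 2-fold difference and red points for ratios past it. Sele had too few UMIs to be drawn. Icam1 in neutrophils (1.61) and NK cells (1.30) and Vcam1 in endothelial cells (1.92) lie past 2-fold, while the integrin chains and Selplg stay within it in neutrophils and monocytes.

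Icam1, the inducible ligand of LFA-1 and Mac-1, was measured in endothelium, epithelium and every large leukocyte class, and it was higher in NP neutrophils. Neutrophils carried 310 Icam1 UMIs in saline, or 6.37 CPM, and 473 in NP, or 19.5 CPM. The log2 ratio was 1.61 (1.40 to 1.82). Free RNA could account for at most 0.37 CPM in saline and 0.76 CPM in NP, well below these levels. With every cell thinned to 1000 UMIs, 0.92% (0.69 to 1.20, exact binomial) of saline and 2.66% (2.13 to 3.28) of NP neutrophils had an Icam1 UMI; 9 and 7 shallower cells were left out. Unthinned, the shares were 4.31% and 8.37% at median depths of 6052 and 5222.5 UMIs. Immature neutrophils served as the low reference, with 0 of 330 saline and 1 of 268 NP cells (0.37%) positive after thinning.

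Icam1 differed in level between neutrophil sub-clusters. In the sub-cluster led by interferon-stimulated genes, 216 saline and 1189 NP cells, it went from 15.3 to 46.1 CPM, a log2 ratio of 1.59 (0.94 to 2.32). Cells led by Hist1h2bc, Cxcr4 and Ppp1r15a, 2535 and 928 in number, went from 14.6 to 27.9 CPM, 0.93 (0.57 to 1.28). Icam1 was thus also higher within these groups of cells, and the ratio in the interferon-led one was close to that of the whole class. Lower levels were found in the sub-cluster led by Csta3, Kit and Stfa2 (5.35 and 15.1 CPM, 47 and 8 UMIs), in that led by Prok2, Retnlg and Mov10 (1.01 and 2.56 CPM) and in immature neutrophils (1.02 and 1.99 CPM), the last 2 with intervals that include 0. With NP sub-cluster shares and saline levels the class would show 0.36, and doing so at NP levels gave 0.65, both smaller than 1.61.

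The other lists measured in neutrophils moved as well. The 10 endothelial markers summed to 24.4 CPM in saline and 56.2 CPM in NP neutrophils, with 0 of 10 at zero in either library, and the 10 monocyte markers to 311 and 477 CPM. Without the sub-clusters led by endothelial or monocyte genes, a choice made after seeing the data, Icam1 was at 5.82 and 19.6 CPM, a log2 ratio of 1.75. The part of RNA from those cell types in the remaining neutrophils was not tested. The 10 genes of the dissociation stress list summed to 10119 and 13481 CPM in neutrophils, a log2 ratio of 0.41 with 7 of 10 higher, and -0.14 in endothelial cells; the part of this in Icam1 was not tested.

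**Figure D3:**
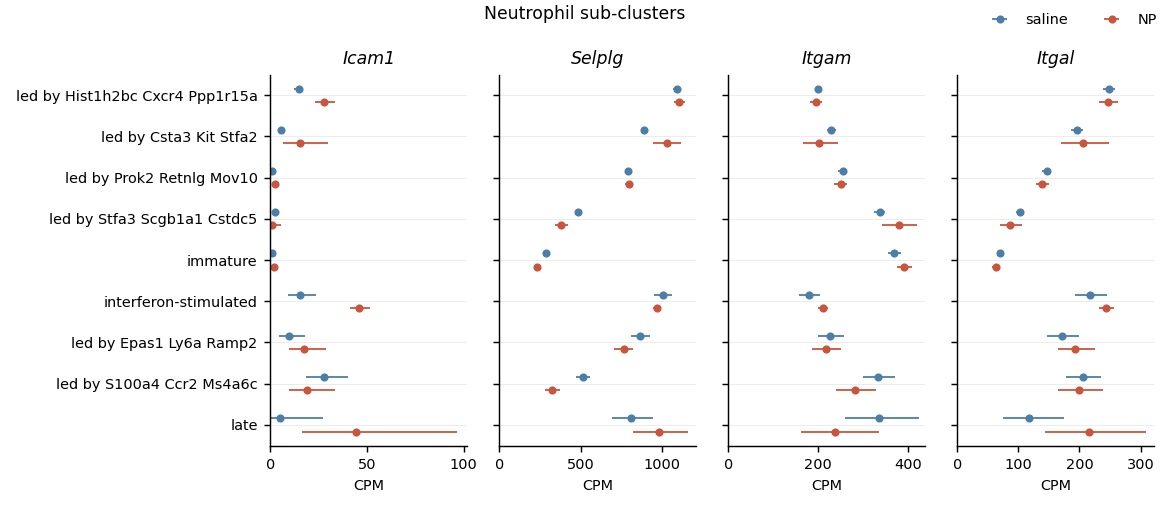
Levels of Icam1, Selplg, Itgam and Itgal (CPM, linear axes) in neutrophil sub-clusters, saline and NP, with exact Poisson 95% intervals. Icam1 is highest in the interferon-stimulated sub-cluster of the NP library at 46.1 CPM, and Selplg is lowest in immature neutrophils at 289 CPM in saline and 233 CPM in NP.

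In endothelial cells Icam1 went from 238 CPM (376 UMIs) to 302 CPM (1799 UMIs), a log2 ratio of 0.34 (0.18 to 0.50), short of 2-fold. Aerocytes, the large capillary cells of gas exchange marked here by their own sub-cluster, had the highest endothelial level and it barely differed, 553 CPM in saline and 568 CPM in NP. The general capillary sub-cluster led by haemoglobin genes went from 149 to 224 CPM, 0.59 (0.19 to 1.01), and that led by Cxcl10, Socs3 and Socs1 from 280 to 342 CPM with an interval that includes 0. Venous cells, 15 and 49 in number, stood at 274 and 363 CPM and arterial cells, 8 and 45, at 267 and 238 CPM. Of these, aerocytes were highest and the haemoglobin-led cells lowest in both libraries, and the venous and arterial levels rest on few cells.

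NK cells went from 52 to 178 Icam1 UMIs, 78.4 to 193 CPM, a log2 ratio of 1.30 (0.85 to 1.77). Neutrophil markers summed to 12886 CPM in saline and 19727 CPM in NP NK cells, and endothelial markers to 27.1 and 91.1 CPM. Leaving out cells with over 1% of their UMIs in neutrophil markers gave 83.4 and 211 CPM and 1.34, about the same ratio. Epithelial cells went from 59 to 199 UMIs, 85.8 to 223 CPM, 1.38 (0.95 to 1.82), in a class where the median gene was also higher. Pericytes and smooth muscle, 10 saline and 56 NP cells with 59278 and 397553 UMIs in all, had 0 and 53 Icam1 UMIs. They also had 6 and 152 UMIs of Icam2, the ligand found chiefly in endothelium. The part of endothelial RNA in this class was not tested.

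Monocytes did not share the Icam1 difference: 733 and 1492 UMIs gave 62.7 and 66.8 CPM, a log2 ratio of 0.09 with an interval that includes 0. Within them the classical sub-cluster led by Chil3 fell from 59.9 to 43.6 CPM, -0.46 (-0.67 to -0.25), and the classical one led by Rsad2 and other interferon-stimulated genes, 30 and 284 cells, from 81.2 to 47.3 CPM, -0.78 (-1.28 to -0.24). The interval for interferon-led monocytes thus lay below 0 and that for interferon-led neutrophils above it. Non-classical monocytes stood at 71.3 and 74.3 CPM. The highest level in the class was in 4 saline and 31 NP cells led by Ccl5, Il4i1 and Fscn1, at 433 and 373 CPM. Their top 10 genes hold Fscn1 and Ccr7, which are on the dendritic cell marker list, and 0 monocyte markers, so they are not called monocytes here although their cluster put them in that class. B cells were at 24.9 and 28.8 CPM, T cells at 34.5 and 37.0 CPM and alveolar macrophages at 53.0 and 56.0 CPM, each within counting error.

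Icam2, the constitutive LFA-1 ligand of endothelium, was chiefly an endothelial transcript and differed little there. Endothelial cells had 1469 UMIs in saline, 931 CPM, and 6470 in NP, 1085 CPM, a log2 ratio of 0.22 (0.14 to 0.30). Aerocytes held 2399 and 2414 CPM, the general capillary cells together 839 and 943 CPM, arterial cells 653 and 883 CPM and venous cells 599 and 644 CPM. The aerocyte level was thus the highest in both libraries and did not move beyond counting error. Of the general capillary cells, those led by Cxcl10 went from 691 to 861 CPM, 0.32 (0.12 to 0.52), and those led by haemoglobin genes stood at 984 and 989 CPM. Endothelium gave 63.3% of all Icam2 UMIs in saline and 79.5% in NP, shares that also depend on how many endothelial cells were captured. Outside endothelium, B cells had 37.5 and 36.1 CPM, and neutrophils 3.64 and 5.85 CPM.

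Fibroblasts had 13 and 61 Icam2 UMIs, 24.8 and 74.7 CPM, a log2 ratio of 1.59 (0.71 to 2.58). The 10 endothelial markers summed to 570 CPM in saline fibroblasts and 1300 CPM in NP fibroblasts, moving the same way. The part of endothelial RNA in this Icam2 difference was not tested.

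**Figure D4:**
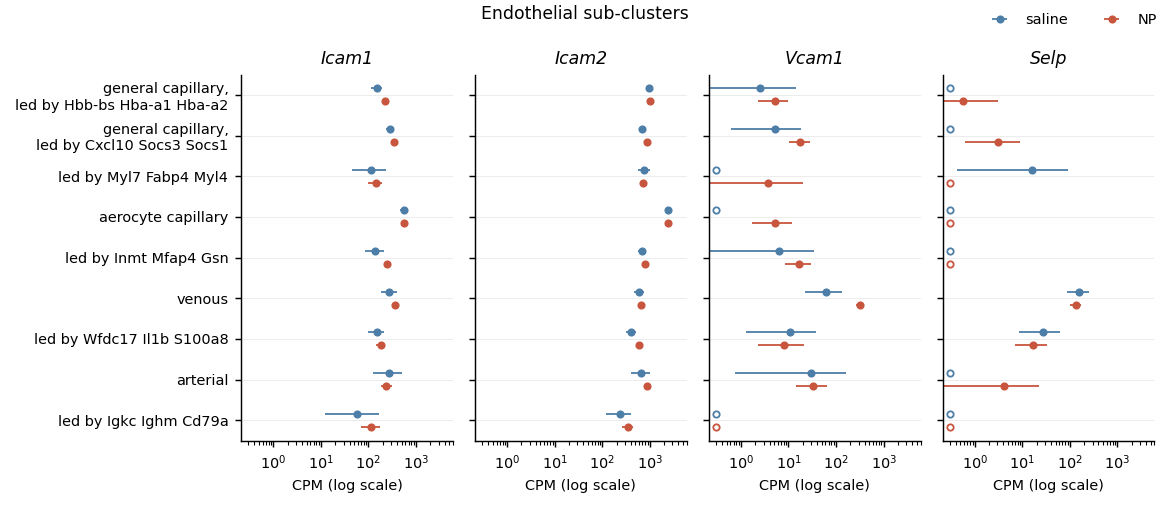
Levels of Icam1, Icam2, Vcam1 and Selp (CPM, log axes) in endothelial sub-clusters, saline and NP, with exact Poisson 95% intervals and open circles at the left for 0 UMIs. Aerocytes hold the highest Icam1 (553 and 568 CPM) and Icam2 (2399 and 2414 CPM), and Vcam1 is highest in venous cells (60.9 and 317 CPM).

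Vcam1, the ligand of the alpha-4 integrins, was high in fibroblasts of both libraries and higher in NP endothelium, where it sat in venous cells. Fibroblasts had 202 and 323 UMIs, 386 and 396 CPM, a log2 ratio of 0.04 (interval from -0.22). Endothelial cells had 13 UMIs in saline, 8.24 CPM, and 186 in NP, 31.2 CPM, a log2 ratio of 1.92 (1.11 to 2.86). The endothelial share of all Vcam1 UMIs was 5.33% in saline and 29.95% in NP, and the fibroblast share 82.8% and 52.0%. These shares also depend on how many cells were captured: endothelial cells were 4.11% of saline and 16.2% of NP cells, and fibroblasts 1.07% and 1.63%. The paper's own cell classes gave endothelial shares that were much closer between the treatments. Why the endothelial shares differ from the paper's was not tested. The Vcam1 level in fibroblasts, its main source, thus stayed within counting error while the endothelial level differed.

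Venous endothelial cells carried 6 of the 13 saline and 131 of the 186 NP UMIs. Their level went from 60.9 to 317 CPM, a log2 ratio of 2.38 (1.22 to 3.85), on 15 saline and 49 NP cells. Vcam1 was seen in 3 of the 15 and 21 of the 49, and in the NP library no venous cell held more than 21 of these UMIs. General capillary cells had 3 and 26 UMIs, and in arterial cells 1 of 8 and 6 of 45 were positive. Neutrophils, which should lack Vcam1, had 8 and 6 UMIs in all and a thinned share of 0.0176% in saline and 0.0633% in NP. Putting the NP sub-cluster shares on saline levels gave an endothelial log2 ratio of 0.06, so the mix of sub-clusters moved the level little. Without the sub-clusters led by fibroblast, neutrophil or B cell genes, endothelial Vcam1 was at 8.47 and 36.8 CPM, 2.12. Near-empty barcodes held 1 Vcam1 UMI in saline (0.23 CPM) and 35 in NP (7.92 CPM). Free RNA made up at most 2.27% of NP endothelial UMIs, which amounts to at most 0.18 CPM of Vcam1, and with free RNA subtracted the log2 ratio was 1.91.

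Vcam1 and the other ligands met in the same venous cells. In saline 2 of 15 venous cells had both a Vcam1 and a Selp UMI, and in NP 14 of 49; Vcam1 and Icam1 were found together in 3 and 17. These cells are too few for a comparison of the libraries. In the monocyte class Vcam1 had 1 UMI in saline and 32 in NP, of which 27 lay in the 31 cells led by Ccl5, Il4i1, Fscn1 and Ccr7 that are described above and lack monocyte markers among their leading genes. The interstitial macrophage class, which also holds cells that scored nearest to dendritic cells, had 11 and 13 UMIs, 12.3 and 10.0 CPM.

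Sele, E-selectin, which endothelium makes on activation, was close to absent. Over all cells there were 6 UMIs in saline and 11 in NP. Endothelial cells held 0 of 1578295 UMIs in saline, where 3 UMIs, the lowest count used in ratios, would be 1.90 CPM. In NP they held 2 UMIs (0.335 CPM), both in 1 venous cell. No difference was detectable at this depth, and near-empty barcodes held 0 Sele UMIs in both libraries.

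Selp, P-selectin, which platelets and endothelium store in granules, was found mostly in neutrophils. They carried 1887 UMIs in saline, 38.8 CPM, and 817 in NP, 33.7 CPM, a log2 ratio of -0.20 (-0.32 to -0.09). Neutrophils gave 90.4% of all Selp UMIs in saline and 74.6% in NP, where they were 65.6% and 38.0% of cells. The levels were even across most sub-clusters, 44.6 and 41.6 CPM in the Csta3-led cells, 46.2 and 44.8 CPM in the Hist1h2bc-led cells and 45.1 and 39.4 CPM in the interferon-stimulated cells. Immature neutrophils were lower and differed more, 23.5 and 14.1 CPM, -0.74 (-1.13 to -0.36). The 7 platelet markers summed to 2.14 CPM in saline neutrophils and 2.76 CPM in NP neutrophils, with 1 and 2 of them at zero, and the platelet class itself had 5 and 1 Selp UMIs.

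Endothelial Selp was found mainly in venous cells, at 152 and 133 CPM against 13.3 and 11.4 CPM over the whole class, with intervals of the differences that include 0. The highest level of all was in a mononuclear sub-cluster led by C1qa, Prg4 and Alox15, 16 saline and 34 NP cells, at 284 and 209 CPM. The interstitial macrophage class, which also took in 45 saline and 50 NP cells led by Retnla, Lyz1 and Ccl17 that scored nearest to dendritic cells, was at 61.7 and 76.2 CPM, with 55 and 99 Selp UMIs of which the C1qa-led cells had 51 and 99.

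Selplg, the ligand that P-selectin binds on leukocytes, was high in neutrophils and did not move there. Neutrophils had 36325 and 17715 UMIs, 747 and 730 CPM, a log2 ratio of -0.03. In CPM it rose from immature neutrophils (289 CPM in saline, 233 CPM in NP) through the Stfa3-led cells (482 and 382 CPM) to the interferon-stimulated (1004 and 968 CPM) and Hist1h2bc-led cells (1090 and 1106 CPM). Median depth over both libraries was 22763.5 UMIs in immature and 4041 UMIs in Hist1h2bc-led cells. Levels by neutrophil sub-cluster, here and for the other genes, are thus not UMIs per cell. The order of these sub-clusters was the same in both libraries, and the spread between them was far wider than the difference between libraries. NK cells were at 873 and 761 CPM, Siglech-led dendritic cells at 827 and 745 CPM, and T cells at 465 and 439 CPM.

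In monocytes Selplg was lower in NP by a small amount, 269 against 233 CPM, a log2 ratio of -0.21 (-0.28 to -0.15). B cells had 164 and 93.2 CPM, -0.82 (-1.02 to -0.62). Neutrophil markers summed to 39379 CPM in saline B cells and 23197 CPM in NP B cells, and without cells with over 1% of their UMIs in those markers Selplg in B cells was at 60.8 and 45.0 CPM, -0.43. The ratio was thus smaller once those cells were left out.

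Itgb2, the shared beta chain, was present in every leukocyte class and did not reach 2-fold in any. Neutrophils had 17385 and 8927 UMIs, 357 and 368 CPM, a log2 ratio of 0.04. Monocytes had 4331 and 9288 UMIs, 370 and 416 CPM, 0.17 (0.12 to 0.22). NK cells went from 639 to 825 CPM, 0.37, and alveolar macrophages from 653 to 717 CPM, 0.14. B cells went the other way, from 84.7 to 58.2 CPM, -0.54 (-0.80 to -0.28), and without the cells rich in neutrophil markers they had 41.6 and 35.0 CPM, -0.25, with an interval that includes 0. Non-classical monocytes stood highest of the monocytes at 840 and 880 CPM.

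Itgam, the alpha chain of Mac-1, was at the same level in neutrophils of both libraries and lower in NP monocytes. Neutrophils had 13054 and 6528 UMIs, 268 and 269 CPM, a log2 ratio of 0.00. Monocytes had 3204 and 4993 UMIs, 274 and 224 CPM, -0.29 (-0.36 to -0.23). The lower level was found within the Chil3-led classical (285 and 256 CPM), the Hbb-bt-led (220 and 170 CPM) and the non-classical cells (352 and 274 CPM). Within neutrophils Itgam ran opposite to Selplg: immature cells were highest at 369 and 391 CPM, with 200 and 195 CPM in the Hist1h2bc-led and 180 and 210 CPM in the interferon-stimulated cells. The interstitial macrophage class, which also took in the Retnla-led cells that scored nearest to dendritic cells, held 299 and 318 CPM. The C1qa-led cells stood higher than this and were lower in NP than in saline. Alveolar macrophages, known for little Mac-1, held 13.5 and 9.76 CPM.

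B cells had 187 and 94 Itgam UMIs, 54.8 and 26.3 CPM, a log2 ratio of -1.06 (-1.43 to -0.69). The neutrophil markers given above for B cells moved the same way. Without the cells rich in them, 31 and 20 UMIs were left, 11.2 and 6.26 CPM, -0.84, with an interval that includes 0.

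Itgal, the alpha chain of LFA-1, was higher in NP monocytes. Monocytes had 3334 UMIs in saline, 285 CPM, and 9288 in NP, 416 CPM, a log2 ratio of 0.54 (0.49 to 0.60). Non-classical monocytes, 91 saline and 353 NP cells, held the most, 866 and 1032 CPM, 0.25 (0.12 to 0.39). The Hbb-bt-led cells, which also lead with Cxcl9 and MHC class II genes and numbered 125 and 364, went from 374 to 522 CPM, 0.48 (0.36 to 0.60). Classical cells led by Chil3 went the other way, 226 and 182 CPM, -0.32 (-0.42 to -0.21), and the Rsad2-led classical cells had 246 and 247 CPM. The sign thus differed between monocyte sub-clusters, and the NP mix of sub-clusters gave a log2 ratio of 0.30 at saline levels and 0.51 at NP levels. The ratio of Itgam to Itgal UMIs in monocytes was 0.961 in saline and 0.538 in NP. In neutrophils that ratio was 1.65 and 1.59.

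Neutrophil Itgal was at 163 and 169 CPM, low in immature cells (70.1 and 63.0 CPM) and higher in the Hist1h2bc-led cells (248 and 247 CPM). Alveolar macrophages had 280 and 248 CPM, -0.17.

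**Figure D5:**
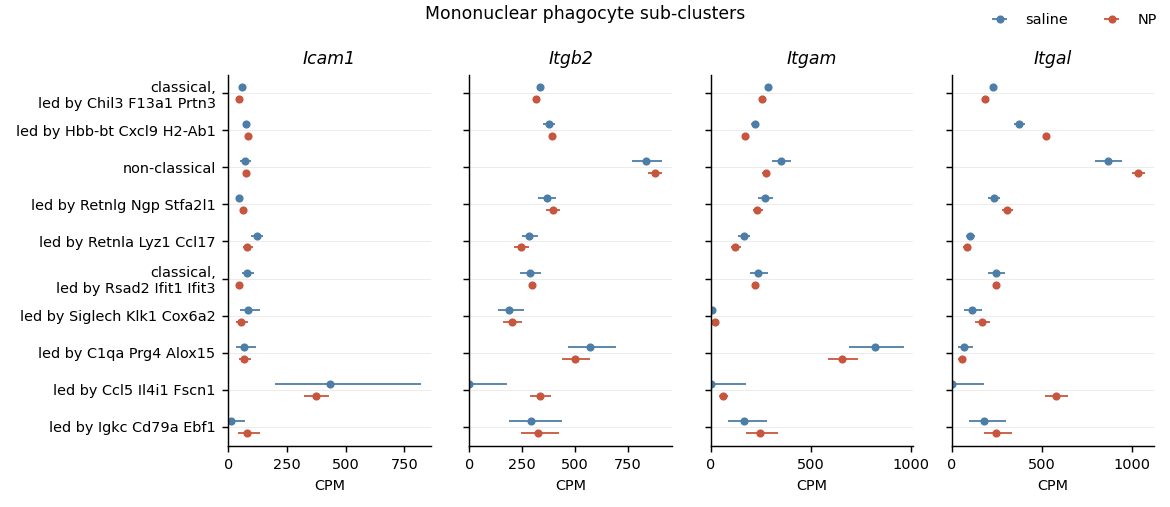
Levels of Icam1, Itgb2, Itgam and Itgal (CPM, linear axes) in mononuclear phagocyte sub-clusters, saline and NP, with exact Poisson 95% intervals. Itgal is highest in non-classical monocytes (866 and 1032 CPM) and Itgam in the cells led by C1qa, Prg4 and Alox15 (818 and 657 CPM).

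The leukocyte genes were also counted in endothelium, at 72.2 and 58.2 CPM for Selplg and 22.2 and 13.8 CPM for Itgam. These UMIs lay largely in a sub-cluster of 15 saline and 47 NP cells led by Wfdc17, Il1b and S100a8, genes of myeloid cells, with 460 and 561 CPM of Selplg and 246 and 230 CPM of Itgb2.

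Summed over all cells, without regard to class, the libraries also differed in the number of cells of each class. In such sums, as in bulk tissue, fewer cells of a type and less RNA per cell cannot be told apart. Over whole libraries Icam1 had a log2 ratio of 1.36, Icam2 1.91, Vcam1 1.45, Itgal 0.37 and Itgb2 0.02, while Selp had -0.83, Selplg -0.54 and Itgam -0.32. Putting the NP class shares on saline class levels gave 0.98 for Icam1, 1.64 for Icam2, 0.83 for Vcam1, -0.58 for Selp and -0.44 for Selplg. For Itgal the same step gave 0.09 and for Itgam -0.18. With clusters in place of classes, or with saline shares set against NP levels, the part that went with the shares ran from 0.79 to 1.11 for Icam1. It ran from 0.20 to 0.26 for Itgal and -0.26 to -0.22 for Itgam. Both choices at once gave 1.11 for Icam1, 0.39 for Itgal and -0.24 for Itgam. For the integrin alpha chains this part thus depended on the choice, and for Itgal it reached the whole-library ratio. Since 1 pool of lungs was loaded per library, the shares themselves carry no replicate error. They also depend on how cells were classed, since the paper's own endothelial shares were much closer between the treatments than those used here.

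The other 40 genes of the adhesion cascade (partner integrins, junction proteins and their ligands, among others) were counted by the same rule. The shares over all genes are those given above for each class. In neutrophils 2 were higher and 0 lower of 29 measured, against 2.5% and 1.49% of all genes. In monocytes 3 were higher and 0 lower of 27, against 2.66% and 0.705%. In fibroblasts 3 were higher and 0 lower of 16, against 2.16% and 1.87%. The higher genes in these 3 classes, named here after their values were seen, are expressed by endothelium, and Pecam1 by leukocytes as well. They were Cdh5, the endothelial cadherin, and Plvap, a capillary diaphragm protein, in neutrophils. The same genes and Pecam1 were higher in monocytes, and Pecam1, Esam and Cdh5 in fibroblasts. The 10 endothelial markers moved the same way in each, from 24.4 to 56.2 CPM, 15.1 to 39.0 CPM and 570 to 1300 CPM. Endothelial cells had 1 higher (Itgb7) and 1 lower (Cd177) of 29, against 1.49% and 0.842%, with neutrophil markers at 18873 and 7904 CPM. B cells had 0 higher and 2 lower of 18 (Cd177 and St3gal4, the latter on 89 and 43 UMIs), against 0.392% and 1.59%. Interstitial macrophages had 2 higher and 1 lower of 20, against 2.24% and 1.53%. NK cells had 1 higher and 0 lower of 18, against 1.27% and 0.864%. T cells had 0 higher and 1 lower of 20, against 0.889% and 0.714%. The epithelial class had 1 higher and 0 lower of 9, against 12.1% and 2.21%. Alveolar macrophages with 20 measured and proliferating cells with 16 had 0 either way. Pecam1, a junction protein of endothelium and leukocytes, went from 11.8 to 30.7 CPM in monocytes, 1.38 (1.11 to 1.65). NP monocytes had Cdh5 at 2.37 CPM, while NP endothelial cells had Pecam1 at 1204 CPM and Cdh5 at 1783 CPM. Cd177, a neutrophil surface protein that binds PECAM-1, went from 81.2 to 33.0 CPM in B cells, -1.30 (-1.62 to -0.98), beside the neutrophil markers given above. The part of RNA from the other cell types in these counts was not tested.

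Partner integrin chains stayed within 2-fold in neutrophils and monocytes. Itga4, the alpha chain that binds VCAM-1, was at 119 and 109 CPM in neutrophils and 367 and 417 CPM in monocytes (0.18). Itgb1, its beta chain, was at 189 and 225 CPM in monocytes (0.26) and 520 and 493 CPM in endothelial cells. Neither reached 2-fold.

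Likeness of pattern was measured as Pearson's r of log2(CPM + 10) over 22 profiles, the 11 large classes in each library, among 11538 genes. The profiles share libraries, so r is a description only. Closest to Icam1 were Dgcr2 (0.908), Pim3 (0.907) and Sacm1l (0.905), and to Vcam1 Tslp (0.984), Cdo1 (0.975) and Clmp (0.974). Hyal1 (0.920) was closest to Icam2, Adam8 (0.817) to Selp, Ptprc (0.915) to Selplg and Cap1 (0.956) to Itgb2. The gene closest to Itgal was Itgb2 (0.922), its own beta chain.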

How the data were processed

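Lungs of saline- and NP-treated mice gave 2 libraries, 1 per treatment. The authors deposited raw UMI counts per gene and barcode, aligned to mm10; the submitters' processing notes name bcl2fastq and Cell Ranger 6.0, while the file header names Cell Ranger 4. Cells were barcodes in which 500 to 5000 genes were seen and mitochondrial transcripts made up less than 7.5%; doublets were not removed. Counts scaled to 10000 per cell were clustered with scanpy 1.11.5 (2000 variable genes, 30 principal components, 20 neighbors, Leiden resolution 1, sub-clusters at 0.5). Clusters were named from fixed marker lists; a rule added after seeing the data left clusters led by skeletal muscle genes unnamed. UMIs were summed per class. Log2 ratios have exact conditional binomial 95% intervals (scipy 1.17.1), tested on simulated data; a count under 3 was set to 3, and intervals cover counting error only. With 1 library per treatment no test was run. The members and lists were chosen with earlier results of these data known. Other genes of the adhesion list are named where past 2-fold with at least 200 UMIs, up to 4 per direction, and 3 genes of like pattern per member were looked up; some named by these rules are not reported here. Alternatives varied the filters, doublet removal, clustering, class rule, UMI minimum and fold. Those that leave out sub-clusters or cells with other classes' genes were chosen after seeing the data.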

Additional observations from a re-analysis of the deposited data

How the results depend on the processing

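Every value rests on 1 library per treatment, so the spread between mice is not in any interval. No paired analysis was possible because each treatment has 1 library and the replicate numbers are only names. Over the alternatives run, the log2 ratio of Icam1 ran from 1.08 to 1.79 in neutrophils (past 2-fold in 15 of 15), from 1.29 to 1.40 in NK cells and from 0.27 to 0.63 in endothelial cells, and its sign in monocytes turned in 2. Vcam1 in endothelial cells ran from 1.63 to 2.13 (past 2-fold in 16 of 16), Itgal in monocytes from 0.49 to 0.62, Itgam in monocytes from -0.33 to -0.19 and Itgam in B cells from -1.23 to -0.76. Selplg in the epithelial class turned to 0.21 at a mitochondrial limit of 5%. Counts of genes past 2-fold that moved were as follows. At 1.5-fold there were 2 higher in neutrophils, 1 lower in monocytes, 2 lower in B cells and 1 lower in endothelial cells. With at least 20 UMIs there were 1 higher in monocytes, 2 lower in B cells, 3 higher in fibroblasts and 2 lower in the epithelial class. With at least 200 UMIs there were 0 higher in endothelial cells, 0 higher in fibroblasts and 0 lower in the epithelial class. At the 5% mitochondrial limit there were 0 lower in B cells and 0 lower in the epithelial class. Removing the top 5% of doublet scores left 0 lower in B cells and 0 higher in fibroblasts, and 4000 variable genes left 0 lower in B cells. A minimum of 800 detected genes gave 1 lower in endothelial cells and 0 lower in the epithelial class, and a minimum of 200 gave 1 lower in fibroblasts. Leiden resolution 2 gave 2 higher in fibroblasts. Among proliferating cells 1 was lower at a minimum of 800 detected genes and 1 at Leiden resolution 0.5. Classes from a marker score per cell gave 1 lower in endothelial cells, 1 lower in T cells, and 2 higher and 4 lower in the epithelial class. Leaving out cells with over 1% neutrophil marker UMIs gave 0 lower in B cells, 0 lower in the epithelial class, 1 higher in interstitial macrophages, 1 higher in T cells and 2 higher in endothelial cells, and leaving out sub-clusters led by genes of another class also gave 2 higher in endothelial cells; both were chosen after seeing the data. The second endothelial gene in both was Itgb2. The causes of these moves were not tested.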

Other observations

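In a cluster led by Ager, Cldn18 and Aqp5, genes of the flat alveolar epithelial cell, which was left unnamed by the marker rule, Icam1 was at 161 CPM in saline and 292 CPM in NP. The mesothelial class, from the lining of the lung, had 2 and 11 Vcam1 UMIs. The dendritic cells led by Siglech, a plasmacytoid gene, had Itgal at 110 and 168 CPM, with an interval of the difference that includes 0. Itgax, the alpha chain of another beta-2 integrin, went from 25.0 to 35.4 CPM in monocytes, a log2 ratio of 0.50. Among immature neutrophils Selplg was at 289 and 233 CPM, -0.31 (-0.41 to -0.21), where the Csta3-led cells had 889 and 1030 CPM, 0.21 (0.09 to 0.34); the intervals of these sub-clusters lie on opposite sides of 0 while the class as a whole stood near it.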
